A study of Mus musculus with 5 samples.

Results

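Inguinal white fat, the pad under the skin of the groin, was set against epididymal white fat, the pad beside the testis and epididymis, for microRNA content. Both were taken from C57BL/6 mice aged 2 to 3 months, with no treatment named, and each gave 1 array of a 1-colour miRCURY LNA platform, whose probes hold locked nucleic acids that bind mature microRNAs. Brown adipose tissue, gastrocnemius muscle and soleus muscle of the same strain and age gave 1 array each and are used here for levels side by side. The number and sex of the animals behind each RNA are not in the labels. Every probe naming a mouse microRNA was taken, which was 598 of the 2312 entries of the deposited matrix. Each had 4 spots per array, and detection meant a median of spots, after background subtraction, of at least 50 units. Of the 598, 133 were detected on both white fat arrays, 15 on the inguinal array alone and 24 on the epididymal array alone, and 426 were under that floor on both. The 172 above it on at least 1 array are described below. With 1 array per depot no test was possible, and every difference is one between these arrays. Errors are standard errors over spots and leave out the spread between animals, extractions and labellings.

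MicroRNAs are short RNAs that guide the Argonaute protein to messenger RNAs, mostly by pairing of the seed, bases 2 to 8 from the 5′ end, and so lower the output of their targets. In white fat they come from adipocytes and from the vessels, connective tissue cells and immune cells between them, and some are largely made by 1 of these cell classes. The inguinal pad encloses a lymph node, and the epididymal pad lies along the epididymis, a duct lined by epithelium. In bulk tissue, fewer cells of a class and less RNA per cell cannot be told apart.

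The sequences below are those of the microRNAs on which the largest differences rested, with near relatives that the array measured beside them. They are RefSeq mature sequences (GRCm38), written 5′ to 3′ with the seed in capitals. The first set was brighter on the epididymal array.
miR-200a: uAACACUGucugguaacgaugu
miR-141: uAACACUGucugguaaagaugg
miR-200b: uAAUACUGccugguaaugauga
miR-200c: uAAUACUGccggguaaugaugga
miR-429: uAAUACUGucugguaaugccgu
miR-34b-5p: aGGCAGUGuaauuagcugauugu
miR-135a: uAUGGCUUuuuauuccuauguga
miR-335-5p: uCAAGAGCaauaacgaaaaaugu
miR-190: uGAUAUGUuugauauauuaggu
miR-708: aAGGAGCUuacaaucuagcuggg
The second set was brighter on the inguinal array.
miR-142-5p: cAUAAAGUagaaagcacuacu
miR-142-3p: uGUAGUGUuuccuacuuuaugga
miR-155: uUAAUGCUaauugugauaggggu
miR-342-3p: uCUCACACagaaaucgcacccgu
miR-338-3p: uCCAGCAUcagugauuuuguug
miR-196a: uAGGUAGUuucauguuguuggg
miR-196b: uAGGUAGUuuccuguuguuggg
miR-19a: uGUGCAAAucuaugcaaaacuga
miR-19b: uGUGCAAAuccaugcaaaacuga
miR-20b: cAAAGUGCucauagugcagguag

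Several of these differ by 1 or 2 bases, counted from the 5′ end of the first named. miR-19a and miR-19b differ at U11C, miR-196a and miR-196b at A12C, miR-200a and miR-141 at C17A and U22G, and miR-200b and miR-200c at U11G and A22G over their shared length. Cross-binding between such probes is possible, and the split of signal between the relatives is uncertain. The same holds for the let-7s, the miR-30s, miR-103 with miR-107 (G22C) and miR-99a with miR-100 (U16A).

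The arrays were alike in what was bright and differed in a minority of microRNAs. Over the 133 microRNAs detected on both, Pearson's r of the log2 levels was 0.93, across microRNAs that share 2 arrays and are not replicates. The 10 brightest on each array had 9 in common, which were let-7a, let-7b, let-7c, let-7f, miR-21, miR-26b, miR-30a, miR-101a and miR-193. miR-142-3p, made by blood cells, was among the 10 on the inguinal array alone, and miR-143, abundant in smooth muscle, among the 10 on the epididymal array alone. On the deposited scale, in multiples of each array's median signal, 30 of 172 were at least 2-fold different, or 17.4%. Of these, 10 were higher on the inguinal array (5.81%) and 20 lower (11.6%). For 10 of the 30, 4 higher and 6 lower, 1 array was under the floor. Their folds are bounds, with the dim side raised to the lowest detected value of its array.

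**Figure D1:**
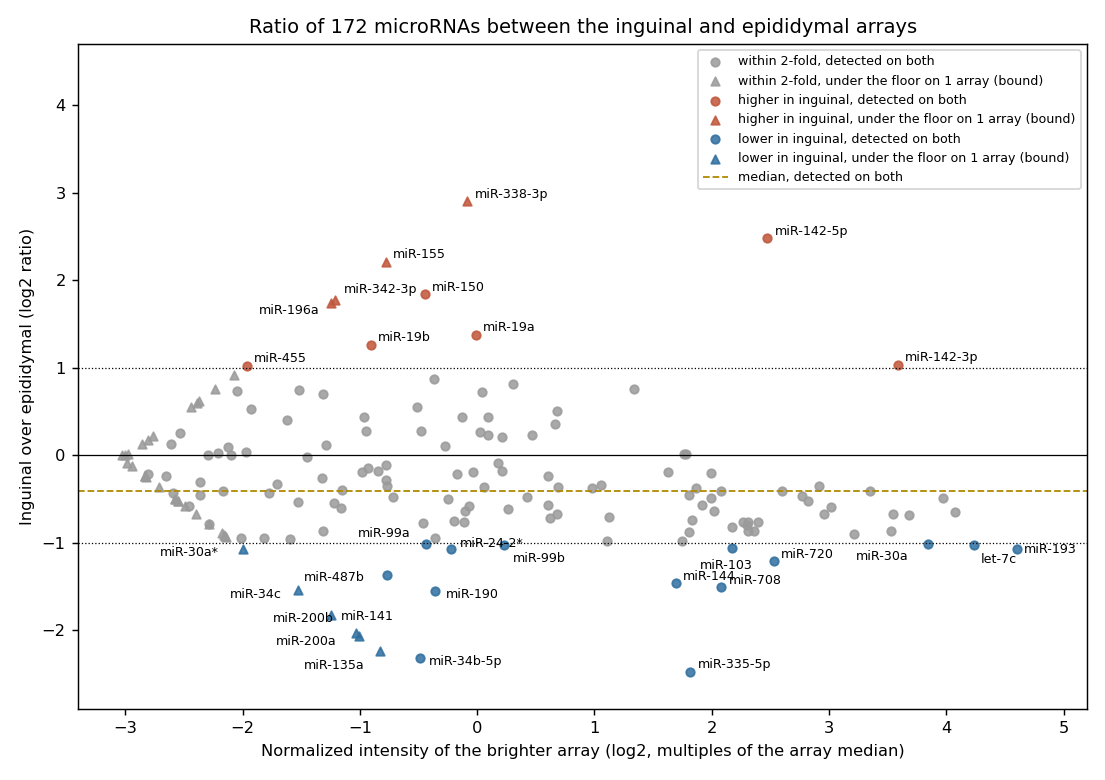
Log2 ratio of inguinal over epididymal normalized intensity against the log2 level on the brighter array, for 172 microRNAs above the floor on at least 1 array. Circles are microRNAs detected on both arrays, triangles are bounds, dotted lines mark 2-fold, and the dashed line is the median of -0.41; most bright points lie under 0, while miR-142-5p and miR-142-3p are the bright points above 1.

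The inguinal array read lower as a whole. The median log2 ratio of inguinal over epididymal was -0.41 over the 133, a 1.33-fold higher signal on the epididymal array, with quartiles of -0.76 and 0.02, and 71.4% of the ratios were under 0. The shift was larger for brighter microRNAs: the median was -0.24 over the 45 dimmest, -0.26 over the 44 in the middle and -0.66 over the 44 brightest. Signal that was not from tissue moved with it. The 5 spike-in RNAs detected on both arrays had a median unscaled log2 ratio of -0.36, within -0.47 to 0.18. On that unscaled signal the median over the 133 microRNAs was -0.32. The dye landmarks had a median of 4252.75 units on the inguinal array and 6989 on the epididymal one, against 6737 to 7503.5 on the other arrays. The part of spike-ins and landmarks in the shift was not tested. Empty positions reached 1.5 units on either white fat array.

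The number and balance of calls depended on how the arrays were scaled, from 10 higher on the deposited scale to 24 under another. Of the calls, 33.3% were higher in inguinal fat on the deposited scale, and 47.8% to 72.7% under the 7 other scalings. Past 2-fold under every one of those were 9 of the 10 higher microRNAs, all but miR-455, and 7 of the 20 lower ones, which were miR-335-5p, miR-34b-5p, miR-135a, miR-190, miR-141, miR-200b and miR-200a. miR-708 and miR-34c were past it under 6 of the 7, miR-144 under 4, miR-487b under 3 and miR-720 under 1. The other 8 lower microRNAs, from miR-193 at 2.10-fold to miR-99a at 2.02-fold, were past it under none. All 7 other scalings raised the median log2 ratio of -0.41, to between -0.32 and 0.075, and none lowered it. Such a rise by itself keeps higher calls and drops lower ones near the limit. The unequal survival of higher and lower calls therefore follows in part from the scalings tried. Group medians are given below relative to the median of -0.41, since a change of scaling factor moves all measured log2 ratios by 1 amount; bounds can move by less.

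**Figure D2:**
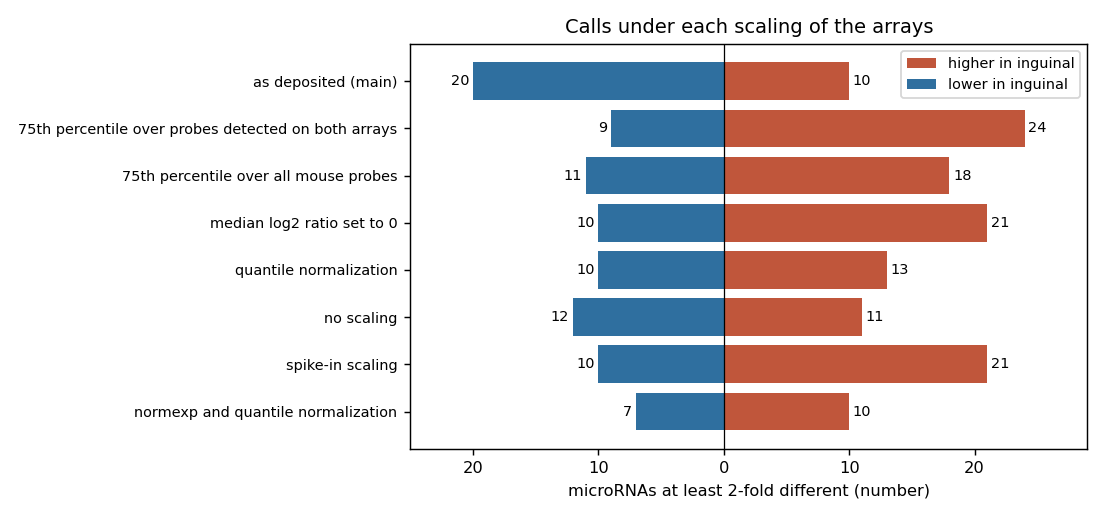
Number of microRNAs at least 2-fold higher (right) or lower (left) in inguinal than in epididymal fat under the deposited scaling and 7 others. The deposited scale gives 10 higher and 20 lower, and scaling by the 75th percentile over probes detected on both arrays gives 24 and 9.

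Spots of 1 probe were close to each other. The SD of the 4 log2 spot values had a median of 0.13 on the inguinal array and 0.15 on the epididymal one over detected microRNAs, and the spot standard error of a log2 ratio had a median of 0.11. For 29 of the 30 called microRNAs the spots of the arrays did not overlap on the normalized scale, miR-99a being the exception. Of the 20 called with both sides measured, 11 were past 2-fold at each of the 4 spot positions.

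**Figure D3:**
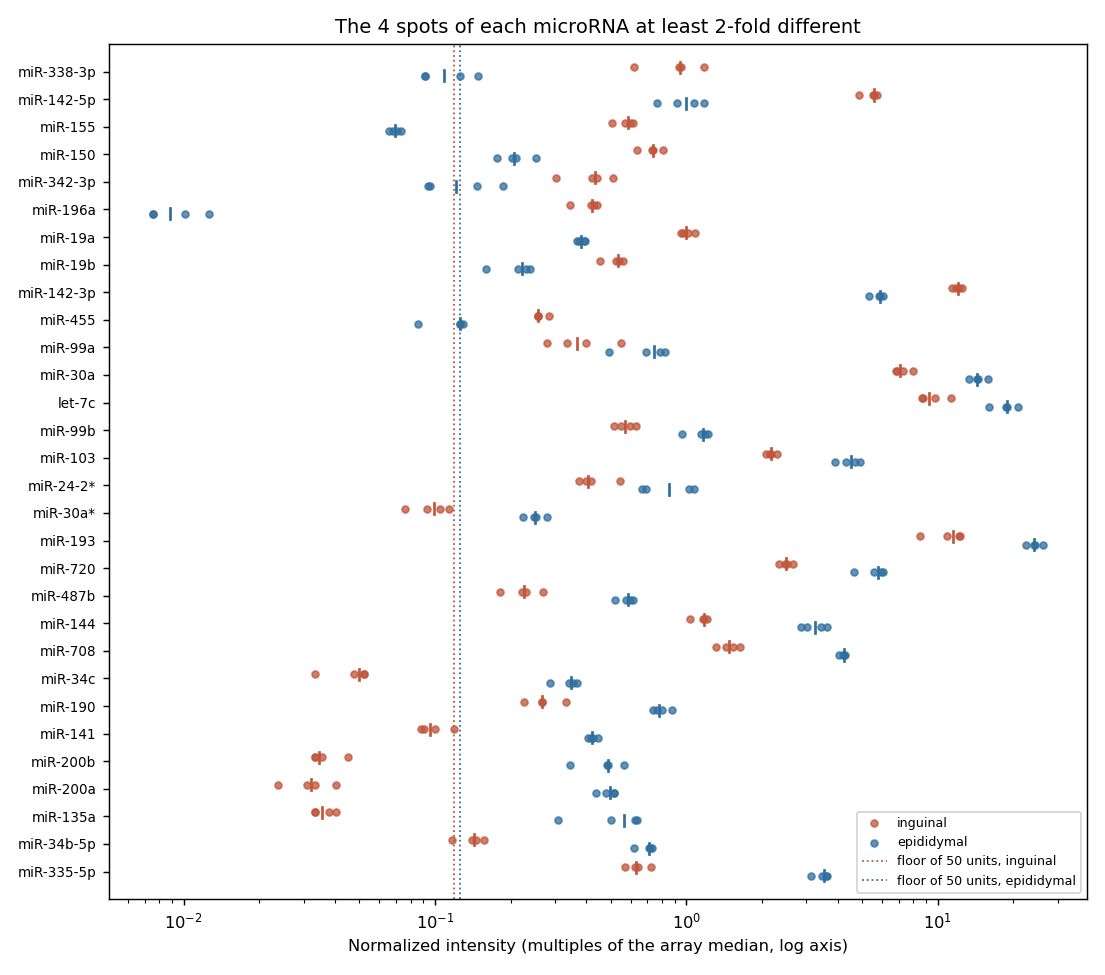
The 4 spot values of each of the 30 microRNAs at least 2-fold different, in multiples of the array median on a log axis, with a bar at the median of spots. Inguinal spots are red, epididymal spots blue, and dotted lines mark the floor of 50 units; the spots of the arrays overlap for miR-99a alone.

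MicroRNAs of white blood cells had the highest median of the 20 lists with members above the floor in inguinal over epididymal fat, under every scaling tried. The lists were chosen with earlier results of these data known, and each scaling uses the same 2 arrays. The order of the lists, here and below, is therefore a description. Of the 11 probes of the leukocyte list, 8 were above the floor, 6 of them on both arrays. miR-155 and miR-342-3p were above it on the inguinal array alone, so they could not be called lower. Of the 8, 5 were at least 2-fold higher and 0 lower, against 5.81% higher and 11.6% lower over all 172. Their median log2 ratio was 1.40, or 1.81 above the overall median, and it lay 1.42 to 1.92 above it under the other scalings. The other 3 probes, for miR-146b*, miR-150* and miR-342-5p, reached at most 6.5 units.

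miR-142, made almost only in blood cells, was bright on both arms. The spots of miR-142-5p read 2348, 2052, 2405 and 2328 units on the inguinal array and 303, 365, 424 and 465 on the epididymal one, a 5.58-fold difference with a spot standard error of 0.14 (log2). Those of miR-142-3p read 4786, 5137, 4986 and 5250 against 2406, 2102, 2334 and 2319, a 2.05-fold difference with an error of 0.05. Every inguinal spot was above every epididymal spot for both arms. The arms lie at chr11:87756867-87756887 and chr11:87756903-87756925 on the plus strand.

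miR-150, which marks mature lymphocytes and targets the transcription factor Myb, read 267, 311, 340 and 307 units in inguinal fat and 70, 83, 80 and 100 in epididymal fat, 3.57-fold apart with an error of 0.13. miR-155, processed from the noncoding transcript Mir155hg at chr16:84714143-84714165 and induced in activated immune cells, read 239, 259, 252 and 212 against 28, 29, 26 and 27, at least 4.62-fold apart. The epididymal array was thus under the floor at each spot. miR-342-3p, which lies within Evl at chr12:108658680-108658702, read 128, 186, 177 and 215 against 37, 38, 74 and 58, at least 3.42-fold apart. The inguinal spots were above the epididymal ones for all 3.

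The rest of the list differed less. miR-146a and miR-146b, both induced by inflammatory signalling through NF-κB, stood at 519 against 279 units (1.75-fold) and at 673.5 against 447.5 (1.42-fold). miR-223, a microRNA of neutrophils and other myeloid cells, read 1432 and 1341 units, a log2 ratio of 0.01, which is still above the overall median of -0.41. So the lymphocyte microRNA and the miR-142 arms were past 2-fold and the myeloid one was not, and whether the folds themselves differ could not be tested. Summed over the 11 probes, the list read 10769.5 units on the inguinal array, 4952 on the epididymal, 2884 on the brown fat, 1765 on the gastrocnemius and 1717.5 on the soleus array. Which cells of the inguinal pad gave this signal was not tested.

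Members of the miR-17-92 cluster and its copies, microRNAs that promote cell growth and are abundant in dividing cells and lymphocytes, were also higher in inguinal fat relative to the rest. Of 21 probes, 10 were above the floor, 8 of them on both arrays. miR-20b and miR-25 were above it on the inguinal array alone, so their bounds could not lie under 0. Of the 10, 2 were past 2-fold higher and 0 lower, beside 5.81% and 11.6% of all 172. All 10 were above the overall median, which for those bounds was fixed in advance. Their median log2 ratio was 0.73, or 1.13 above the overall one, and 0.65 to 1.13 above it under the other scalings, with 2 to 6 members past 2-fold. miR-19a read 401, 426, 409 and 455 units in inguinal fat and 148, 145, 155 and 157 in epididymal fat, 2.60-fold apart with an error of 0.05. miR-19b read 191, 236, 228 and 220 against 63, 91, 85 and 95, 2.40-fold apart with an error of 0.15. In neither case did the spots of the arrays overlap.

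The copies of the cluster were not alike. In the cluster on chr14:115043684-115044380 the log2 ratios were 0.72 for miR-17, 1.38 for miR-19a, 0.87 for miR-20a and 1.26 for miR-19b. In the copy on the X chromosome, miR-20b read 100 units against 14 and was at least 1.88-fold higher, while miR-106a, at 301 against 234.5 units, had a log2 ratio of 0.27. In the copy on chr5:138165332-138165807 miR-106b stood at -0.21 and miR-93 at -0.19, and miR-25 had a bound of 0.13. The remaining listed probes, among them miR-18a at 10 against 4 units and miR-92a at 11 against 1.5, were under the floor on both arrays.

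The highest bound in favour of inguinal fat was that of miR-338-3p, which lies within Aatk at chr11:120014781-120014802 and is best known from the maturing of oligodendrocytes. Its spots read 392, 402, 493 and 261 units on the inguinal array and 36, 59, 50 and 36 on the epididymal one, at least 7.48-fold apart on the deposited scale and at least 4.46-fold under the scaling that gave the least. The spots did not overlap. The other arm, miR-338-5p, was under the floor on both, at 21.5 and 6.5 units. On the other arrays miR-338-3p read 207.5 units in brown fat, 279 in gastrocnemius and 203 in soleus, so the epididymal array was the one under the floor.

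miR-196a, encoded within Hox gene clusters at chr11:96265187-96265208 and chr15:102973365-102973386, represses Hoxc8 and is reported to favour brown-like adipocytes in mouse white fat. It read 175, 180, 185 and 145 units in inguinal fat and 3, 3, 5 and 4 in epididymal fat, at least 3.34-fold higher. It was near the level of empty positions on the epididymal array and on the brown fat array, at 0.5 units, while gastrocnemius read 465.5 and soleus 329. Its relative miR-196b followed the same order, with 51.5 units in inguinal and 6.5 in epididymal fat, 1 in brown fat, 105.5 in gastrocnemius and 89 in soleus, although the floor left no fold for the white depots. The other Hox microRNAs above the floor, miR-10a and miR-10b, had log2 ratios of -0.76 and -0.74. miR-10a read 1306 against 2084 units and miR-10b 898 against 1409.5, and both were lower in inguinal fat by less than 2-fold.

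miR-455, induced in brown fat and reported to promote brown adipocyte formation, was 2.03-fold higher in inguinal fat with an error of 0.15. Its spots read 108, 108, 119 and 108 units against 34, 50, 51 and 50, so the epididymal array lay at the floor, and brown fat read 446.5. It fell short of 2-fold under 1 of 7 other scalings, at 1.63-fold. The brown adipocyte list as a whole did not stand apart between the white depots. Of 9 probes 6 were above the floor, with miR-455 past 2-fold higher and miR-193 past 2-fold lower, and a median 0.05 above the overall one. miR-193 read 4856.5 units in inguinal and 9617 in epididymal fat, miR-365 559.5 and 862.5, miR-378 1188.5 and 1909, miR-32 384.5 and 267, and miR-193b 52 and 49.5.

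**Figure D4:**
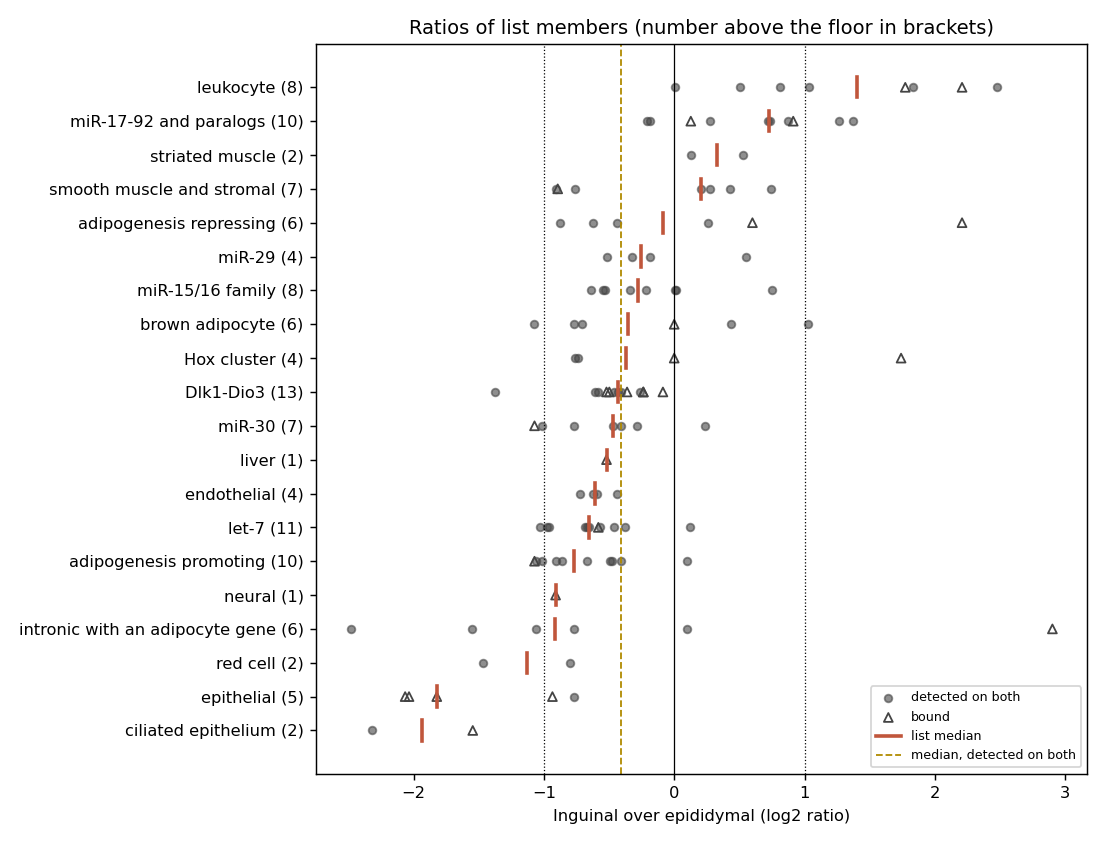
Log2 ratios of inguinal over epididymal intensity for the members of 20 lists that were above the floor on at least 1 array, with the list median in red, bounds as open triangles and the overall median of -0.41 dashed. The leukocyte and miR-17-92 lists lie farthest to the right and the epithelial and ciliated epithelium lists farthest to the left.

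MicroRNAs of epithelium went in the other direction. The miR-200 family, which keeps cells epithelial by repressing Zeb1 and Zeb2, had 4 of its 5 members detected on the epididymal array and all 5 under the floor on the inguinal one. Of the 16 probes of the epithelial list 5 were above the floor. Of these, 3 were past 2-fold lower in inguinal fat and 0 higher, against 11.6% and 5.81% of all. Among the 5, miR-203 alone was detected on both arrays. The others passed the floor on the epididymal array alone, so they could not be called higher. The median log2 ratio was -1.82, which is the bound of miR-141. Taken relative to the overall median it was -1.42, and between -1.50 and -0.97 under the other scalings.

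miR-200a read 13, 14, 17 and 10 units on the inguinal array and 190, 205, 204 and 173 on the epididymal one, at least 4.18-fold apart. miR-200b read 15, 19, 14 and 14 against 136, 192, 223 and 194, at least 4.10-fold apart, and miR-141 38, 37, 50 and 42 against 161, 165, 168 and 177, at least 3.54-fold apart. Under normexp background correction with quantile normalization the bounds were smaller, at 2.31-fold, 2.29-fold and 2.04-fold in the same order. For all 3 the spots did not overlap. miR-200c read 19.5 against 90 units, with a bound of 1.91-fold, and miR-429 1.5 against 32, under the floor on both arrays.

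The family is made from a pair of loci, and both were brighter in epididymal fat. miR-200b, miR-200a and miR-429 lie within 10 kb of each other, at chr4:156053916-156055706 within the noncoding gene Gm13648, and miR-200c and miR-141 at chr6:124717917-124718346. Both seeds of the family were represented, AACACUG in miR-200a and miR-141 and AAUACUG in miR-200b, miR-200c and miR-429. On the brown fat, gastrocnemius and soleus arrays the 5 members read at most 7.5 units, so among the 5 arrays the epididymal one alone detected any of them.

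The other epithelial microRNAs were within the limit or under the floor. miR-203, which is abundant in skin epithelium, read 178.5 against 287 units, a log2 ratio of -0.77 on the side of the family, and was brightest in brown fat at 757. miR-205, of stratified and glandular epithelium, read 5.5 and 7.5 units, and the main arms of miR-182, miR-183 and miR-96, a cluster known from sensory epithelium, read 2 to 12.5 units on the white fat arrays. The lesser arm of miR-200b, miR-200b*, read 44 and 39.5 units, under the floor on both arrays, and was given no ratio. Summed over the 16 probes, the list read 371.5 units in inguinal and 1058.5 in epididymal fat, with 1401 in brown fat, where miR-203, miR-182 and miR-96 made up most of it.

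miR-34b and miR-34c, made from 1 transcript in ciliated cells and testis and induced by p53, were the members above the floor of the ciliated epithelium list, whose median relative to the overall one was the lowest of all lists on the deposited scale, at -1.53. miR-34b-5p, at chr9:51103610-51103632, read 49, 66, 61 and 59 units in inguinal fat and 245, 289, 283 and 282 in epididymal fat, 5.0-fold apart with an error of 0.11, and 2.74-fold under normexp background correction with quantile normalization, the scaling that gave the least. miR-34c read 20, 22, 22 and 14 against 114, 135, 145 and 140, at least 2.92-fold apart, and 1.72-fold under that scaling. The spots did not overlap, and both microRNAs were under the floor on the other 3 arrays, at 14 units or less. miR-34b-5p shares its seed GGCAGUG with miR-34a, which is made more widely from another locus and had a log2 ratio of -0.35, close to the overall median. Other probes of the ciliated list were under the floor on both arrays, with epididymal values of 39.5 units for miR-34b-3p, 32 for miR-34c*, 11 for miR-449a, and 0 for miR-449b and miR-449c.

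The germ cell list, the X-linked testis cluster, was not detected on the white fat arrays. miR-34b and miR-34c, also made in testis, are not on that list. All 27 probes of the X-linked testis cluster, whose microRNAs are made in the germ cells of the testis, were under the floor on both white fat arrays, at most 26.5 units on the inguinal and 30.5 on the epididymal array. Their sums were 80.5 and 92 units. For the ciliated list the sums over 7 probes were 106.5 and 502.5 units. Whether cells of the epididymis or testis contributed to the epididymal array was not tested.

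miR-335-5p had the largest measured fold in favour of epididymal fat. It lies within Mest at chr6:30741314-30741336, an imprinted gene whose level in mouse white fat goes with the growth of fat mass. Its spots read 239, 263, 269 and 304 units on the inguinal array and 1239, 1369, 1440 and 1421 on the epididymal one, 5.57-fold apart with an error of 0.09, and 3.67-fold under the scaling that gave the least. The spots did not overlap. Brown fat read 347, gastrocnemius 828.5 and soleus 731.5, so the inguinal array was the lowest and the epididymal array the highest of the 5. The other arm, miR-335-3p, read at most 2.5 units on any array.

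miR-135a, encoded on chr9:106154140-106154162 within Glyctk and on chr10:92072141-92072163, read 14, 17, 16 and 14 units against 122, 251, 248 and 198, at least 4.74-fold apart, with a lowest bound of 2.54-fold over the scalings. Besides the epididymal array, soleus alone was above the floor, at 90.5 units. miR-190, within Tln2 at chr9:67236700-67236721, read 112 against 309 units, 2.93-fold apart, and miR-708, within Tenm4 at chr7:96249450-96249472, 623.5 against 1676, 2.85-fold apart. miR-708 was dim in both muscles, at 62 and 78 units, and bright in brown fat at 850, while miR-190 was brightest in gastrocnemius at 385.5. Under the scaling that gave the least, the fold of miR-708 was 1.92.

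**Figure D5:**
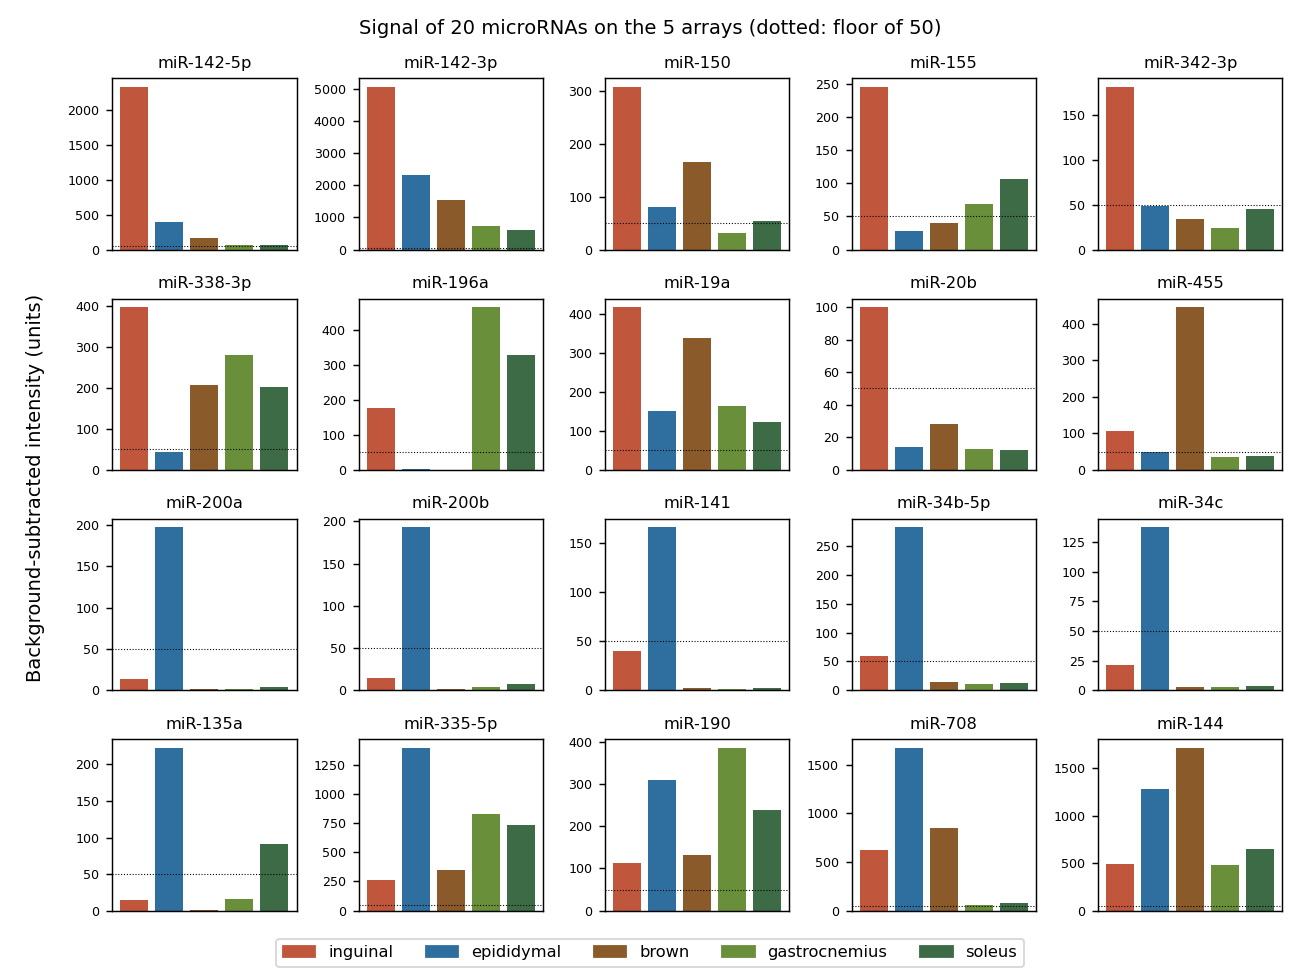
Background-subtracted intensity of 20 microRNAs on the 5 arrays (bars, 1 array each, own axis per panel from 0; dotted line, floor of 50 units). The inguinal bar is the highest for miR-142-5p, miR-142-3p, miR-150, miR-155, miR-342-3p, miR-338-3p, miR-19a and miR-20b, and the epididymal bar for miR-200a, miR-200b, miR-141, miR-34b-5p, miR-34c, miR-135a, miR-335-5p and miR-708.

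The other lower microRNAs were mostly near the limit, with miR-144, miR-487b and miR-720 farther from it. miR-144, a red cell microRNA from the locus of miR-451, read 493 against 1282.5 units, 2.76-fold apart and 1.84-fold at the least over the scalings, and miR-451 1190.5 against 1952, with a log2 ratio of -0.80. With miR-486, under the floor at 15 and 28, the red cell list summed to 1698.5 units in inguinal and 3262.5 in epididymal fat, and whether the amount of blood in the pads differed was not tested. miR-487b, of the imprinted Dlk1-Dio3 region, read 95 against 232 units and was 2.59-fold lower in inguinal fat. It was the only member of that region past 2-fold among 13 above the floor, of 70 probes, where 11.6% of all were past it, and the list median relative to the overall one was -0.03. miR-720, since reclassified as a fragment of a transfer RNA, was 2.32-fold lower. miR-30a* was at least 2.10-fold lower and miR-24-2* 2.10-fold.

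miR-103, made from introns of Pank2 and Pank3 and known to lower insulin sensitivity in mouse fat and liver, read 912 against 1790 units and was 2.08-fold lower in inguinal fat. Its relative miR-107 read 96.5 against 85, with spots of 123, 64, 90 and 103 against 64, 106, 33 and 107, which overlapped. miR-30a, reported to favour adipocyte formation in human cells, was 2.02-fold lower, let-7c 2.04-fold, miR-99b 2.05-fold and miR-99a 2.02-fold. These last 4 and miR-103 are the 5 lower microRNAs nearest the limit on its inside. Just outside it were miR-24-1* at 1.98-fold, let-7e at 1.97, let-7d* at 1.95, miR-22* at 1.93 and miR-290-5p at 1.93. Among the higher ones, the 5 nearest on the inside were miR-455 at 2.03-fold, miR-142-3p at 2.05, miR-19b at 2.40, miR-19a at 2.60 and miR-196a with a bound of 3.34. Those nearest on the outside were miR-20b at 1.88-fold, miR-20a at 1.83, miR-146a at 1.75, the probe shared by miR-466a-3p, miR-466b-3p, miR-466c-3p and miR-466e-3p at 1.69 and miR-15b at 1.68, those of miR-20b and miR-466 being bounds.

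MicroRNAs reported to promote or hold back adipocyte formation had few members past the limit. Of 16 probes on the promoting list 10 were above the floor, with 0 past 2-fold higher and 3 lower, beside 5.81% and 11.6% of all. The 3 were miR-103, miR-30a and miR-30a*, each of them past it under 0 of the 7 other scalings. The list median relative to the overall one was -0.36. Of 19 probes on the repressing list 6 were above the floor, with miR-155 past 2-fold higher and 0 lower, beside the same shares, and a median 0.32 above the overall one. miR-155 is also on the leukocyte list. Among the others of that list, miR-27a read 428.5 against 336.5 units, miR-130a 800.5 against 1383, miR-222 327.5 against 474.5, miR-221 90.5 against 115.5 and miR-130b 80.5 against 23. miR-130b, with a bound of 1.52-fold in favour of inguinal fat, and miR-130a, 1.83-fold in favour of epididymal fat, share the seed AGUGCAA.

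A further list held microRNAs that lie within genes, and was drawn up for genes of adipocytes. Whether those genes were active in the adipocytes of these pads was not measured. Of its 11 probes 6 were above the floor. miR-338-3p was past 2-fold higher and miR-335-5p, miR-190 and miR-103 lower, beside 5.81% higher and 11.6% lower of all. miR-378, within Ppargc1b, read 1188.5 against 1909 units, below the limit. The let-7 family had 11 of 15 probes above the floor, with let-7c alone past the limit (lower, as 11.6% of all were), and a median relative to the overall one of -0.25, which was not negative under 2 of the other 7 scalings. The miR-30 family had 7 of 10 above the floor and 2 lower, both arms of miR-30a, beside 11.6% of all, with a relative median of -0.06. The miR-29 and miR-15/16 families had 0 of 4 and 0 of 8 past the limit, with medians 0.15 and 0.13 above the overall one.

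Markers of other cell classes gave no difference past the limit on the deposited scale. Striated muscle microRNAs, which would show muscle carried along with the fat, were low on both. miR-206 read 2 and 2.5 units and miR-133a 110.5 and 72, against 5785 for miR-133a in gastrocnemius, and the list of 8 probes summed to 206.5 and 148 units against 14681 in gastrocnemius and 25653 in soleus. The 2 striated muscle members above the floor, miR-133a and miR-133b, had a median 0.74 above the overall one. Under the other scalings it lay 0.41 to 0.74 above, with 0 to 1 members past 2-fold higher. The endothelial list had 0 of 4 past the limit, with miR-126-3p at 2258.5 against 3207 units and a relative list median of -0.20. Smooth muscle and stromal microRNAs, with 0 of 7 past it, went both ways. The median of their list was 0.61 above the overall one. Under the other scalings it lay 0.38 to 0.61 above, with 0 to 1 members past 2-fold higher. Its fibroblast members were on the inguinal side, with log2 ratios of 0.74 for miR-199a-5p, 0.43 for miR-199b* and 0.27 for miR-214, and its smooth muscle members on the epididymal side, at -0.90 for miR-143 and -0.76 for miR-145. Of the neural list miR-218 alone was above the floor, and of the liver list miR-192 alone, both on the epididymal array only, at 88.5 and 67.5 units.

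Set beside the other 3 arrays, the called microRNAs were mostly at an extreme. The inguinal array was the highest of the 5, by normalized level, for 8 of the 10 higher microRNAs, against 29 of all 172. The epididymal array was the highest for 15 of the 20 lower ones, against 57 of 172, and the inguinal array the lowest for 10 of them, against 62 of 172. The comparison itself favours extremes, so these counts are a description. The exceptions among the higher ones were miR-196a, highest in gastrocnemius, and miR-455, highest in brown fat.

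MicroRNAs that share a seed did not always share a ratio. A RefSeq mature sequence was matched to 106 of the 172 microRNAs and to 25 of the 30 called, and the 106 gave 24 seeds with at least 2 members. Some of these values are bounds, and a range widens with the number of members, here 2 to 9. The range of log2 ratios within a seed had a median of 0.63 and was over 1 for 11 of the 24. It was 0.11 for miR-19a and miR-19b, and 0.02 for miR-10a and miR-10b. The widest was 1.97, for miR-34a and miR-34b-5p, followed by 1.74 for miR-196a and miR-196b, whose values are both bounds. Among the rest it was 1.48 for miR-130a, miR-130b and miR-301a, and 1.16 for miR-103 and miR-107, which differ at 1 base. miR-107 was dim, its spots overlapped between the arrays, and its log2 ratio had a spot standard error of 0.45, so that last range is uncertain.

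Arms cut from 1 precursor were mostly close. Both arms were detected on both arrays for 10 microRNAs, and their log2 ratios differed by a median of 0.16, with the same sign in 8 of the 10. A shared sign is favoured by the shift of the arrays, since 71.4% of the ratios over the 133 microRNAs were under 0. The difference between arms was 0.01 for miR-503 and miR-503* and for miR-17 and miR-17*, and 0.52 for miR-30e and miR-30e*. The exception was miR-142, whose arms differed by 1.45, the fold of the 5p arm being 2.72 times that of the 3p arm. Neighbouring loci were alike in part. miR-99b, let-7e and miR-125a-5p, on chr17:17830194-17830840, had log2 ratios of -1.03, -0.98 and -0.83, while miR-23a, miR-24-2* and miR-27a, on chr8:84208563-84208896, had -0.86, -1.07 and 0.26.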

How the data were processed

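Total RNA was labelled and read as Cy3, per the labels. Per the file headers, the authors deposited background-subtracted intensity per spot, its median over the 4 spots of a probe, and a normalized intensity, a ratio to the median of the array, taken over microRNAs that passed 50 in every sample. The scales were 420.5 units for the inguinal and 396 for the epididymal array. The authors also deposited the fold, a ratio of epididymal over inguinal, for each probe. With values under the floor left as deposited, that rule gives 42 mouse microRNAs past 2-fold (15 higher in inguinal fat, 27 lower). The series value table matched these normalized intensities to within 4.6e-09 for 1973 probes. The sources used here do not name the scanner software. No column of per-sample values was left unmapped.

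Each mouse probe was given the log2 ratio of its normalized intensities, with a floor of 50 units and a limit of 2-fold; a side under the floor was set to the lowest detected value of its array. No test or p-value was possible with 1 array a depot. Named microRNAs were all those past 2-fold, members of 21 lists, their other arms, the 5 nearest the limit on either side and the 10 brightest. The members and lists were chosen with earlier results of these data known. The array's names were matched by hand to RefSeq mature names. Other scalings were the 75th percentile over probes detected on both arrays or over all mouse probes, the median ratio set to 0, quantile normalization, none, spike-ins, and normexp (offset 50) with quantile normalization in limma 3.58.1 under R 4.3.3. Other choices were floors of 30 and 100, bounds left out, the mean of spots, and limits of 1.5-fold and 3-fold. The rest was computed in Python 3.11.15 with numpy 2.4.6 and pandas 2.3.3. Calling was also tested on simulated data. Precision is limited by the number of arrays, which have no read depth.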

Additional observations from a re-analysis of the deposited data

Results flagged for a closer look

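A signal among the 39 viral probes, which lay outside the comparison, is described here. The rest of those probes are not. The probe for mghv-miR-M1-8, a microRNA of a mouse gammaherpesvirus, read 245.5 background-subtracted units on the inguinal array, with spots from 234 to 250, and 202 on the epididymal array, with spots from 177 to 216. Empty positions reached 1.5 units on either array, and no infection is named in the labels. The same probe read 197 units in brown fat, 130 in gastrocnemius and 186 in soleus.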

How the results depend on the processing

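The counts of higher and lower microRNAs and the overall median depended on scaling. Scaling by the 75th percentile over probes detected on both arrays gave 24 higher, 9 lower and a median of 0.075 (log2), over all mouse probes 18, 11 and -0.11, the median set to 0 gave 21 and 10 with a median of 0, quantile normalization 10 lower and -0.0728, no scaling 12 lower, spike-in scaling 21, 10 and 0.0364, and normexp with quantile normalization 17 in all, 7 lower and -0.0593. The sign of the overall median thus turned under scaling by that 75th percentile and by spike-ins. A floor of 100 units, or leaving out bounds, gave 6 higher. A limit of 1.5-fold gave 82, with 21 higher and 61 lower, and a limit of 3-fold 12, with 6 and 6. A floor of 30 and the mean of spots kept the counts within 1.5 times.

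Of the 30 folds, 13 were over 1.5 times smaller under at least 1 scaling, with lowest values of 4.46 for miR-338-3p, 2.74 for miR-34b-5p, 3.67 for miR-335-5p, 1.72 for miR-34c, 1.84 for miR-144, 2.04 for miR-141, 2.54 for miR-135a, 2.29 for miR-200b, 2.31 for miR-200a, 1.32 for miR-30a and miR-103, 1.26 for let-7c and 1.15 for miR-193. The causes were not tested. No paired analysis was possible because both depots had a single array. No value here has a replicate, and differences between animals, extractions and labellings cannot be told apart from those between depots.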

Other observations

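Of the 24 microRNAs above the floor on the epididymal array alone, those not past 2-fold had bounds of 1.06-fold to 1.91-fold. Among them were miR-207, at 44.5 units in inguinal and 89.5 in epididymal fat, miR-294* at 47 and 81, miR-744 at 48.5 and 75, and miR-125b* at 31.5 and 66.5. Of the 15 above it on the inguinal array alone, those not past 2-fold had bounds of 1.00-fold to 1.88-fold. Among them were miR-7a at 81.5 and 46 units, miR-467b at 77.5 and 22, miR-362-3p at 62 and 36, and miR-374 at 60 and 32.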
